A study of Mus musculus with 3 samples.

Results

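The genes examined here encode protein families that act in the splicing of messenger RNA precursors, both subunits of the splicing machinery and proteins that regulate it. They are the mouse protein-coding genes with more than 1 exon whose symbols begin with Srsf, Hnrnp, Snrp, Sf3a or Sf3b in GENCODE M1, the gene models of the mm9 genome. The rule found 49 symbols, of which *Hnrnpa0* and *Sf3b5* have a single exon and were left out. The remaining 47 genes, of 22367 protein-coding genes in all, comprise 11 Srsf, 17 Hnrnp, 12 Snrp and 7 Sf3a and Sf3b genes. The rule itself uses names and exon counts and no value measured here.

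The cells were MKMat, mature megakaryocytes (the cells that shed platelets), grown for 5 days in thrombopoietin from livers of wild-type CD1 mouse embryos. The labels give embryonic day 15, whereas the study's methods give an earlier day. The samples are 3 libraries: FLI1 ChIP-seq, RUNX1 ChIP-seq and input chromatin, 1 library each, with DNA from at least 3 precipitates pooled for each antibody. With 1 library per antibody there are no replicates, so no test and no p-value is given. Bracketed ranges are exact (Clopper-Pearson) 95% binomial intervals of the read ratio before any pseudocount, and they cover counting error only. The files hold 62946422 FLI1, 3973856 RUNX1 and 21745220 input reads on nuclear chromosomes after repeated input positions were removed, so a promoter is measured far more precisely for FLI1 than for RUNX1.

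FLI1 belongs to the ETS family, whose members recognise DNA around the core GGAA, and RUNX1 binds a short runt-domain sequence. Both are needed for normal megakaryocyte maturation. SR proteins (Srsf genes) bind exonic sequence and recruit the splicing machinery, hnRNP proteins (Hnrnp genes) coat nascent transcripts and often oppose exon use, Snrp genes encode the Sm ring and other subunits of the small nuclear ribonucleoproteins, and SF3A and SF3B form the part of the U2 particle that holds the intron branch point. Most of these proteins are made in nearly every cell type, with exceptions such as that of *Snrpn*, and many of the genes have promoters rich in CpG dinucleotides.

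Sequences around FLI1 summits are shown to let the ETS consensus be seen where it was found, at 20 of the 47 members. A summit is the base, within 1 kb of the gene start, that is covered by the most FLI1 reads after extension to the fragment length. The 6 windows here are 29 bases long, were read 5′ to 3′ on the strand that carries the ETS consensus, and are centred on that consensus, which is in capitals. *Snrpb* and *Sf3b2* were the members of their families with the highest FLI1 fold over input, and the other 4 are named members that carry a match. The *Snrpb* window is at chr2:130005099-130005127 (minus strand), with its match 26 bp downstream of the gene start in annotated exon. The *Sf3b2* window is at chr19:5295451-5295479 (minus strand) and spans the gene start, with its match 10 bp upstream of the start and outside any annotated exon. The *Srsf5* window is at chr12:82046452-82046480 (plus strand), with its match 25 bp upstream of the start and likewise outside exons. *Snrpc* is at chr17:27976982-27977010 (plus strand), 77 bp downstream of the start in exon. *Hnrnpd* is at chr5:100408118-100408146 (plus strand), 175 bp upstream of its gene start, in an exon of another gene record. *Snrpe* is at chr1:135506850-135506878 (plus strand), a window that spans the start, with its match 4 bp downstream of the start in exon. All coordinates are mm9.
Snrpb: ccgaggccggaCCGGAAGtagcttcacta
Sf3b2: ggattacgcaaCCGGAAGtttctggaagt
Srsf5: ctggcaccgccCCGGAAGtgacgccagga
Snrpc: tagggcagaggCCGGAAGcggaagtccta
Hnrnpd: tttaaagaggaCCGGAAGtggcgtgcgca
Snrpe: ggaagcaagacCCGGAAAcggaagtgcag

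The highest members of the other 2 families had no such match within 50 bp of the summit. They are shown for contrast, on the strand of the gene and without capitals. For *Hnrnpa2b1* the 101 bases around the summit are at chr6:51420015-51420115 of mm9 (minus strand), outside annotated exons and around a summit 172 bp upstream of the gene start. For *Srsf1* the central 30 bases are at chr11:87861112-87861141 (plus strand), inside annotated exon.
Hnrnpa2b1: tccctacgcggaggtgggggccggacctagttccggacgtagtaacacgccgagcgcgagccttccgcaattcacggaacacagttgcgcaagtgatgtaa
Srsf1: cgcctgcgcactgggagggacgagccgctt

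The first question was whether FLI1 reads gathered at the starts of these genes, and how that compared with other genes. Reads were counted within 1 kb of each gene start, divided by library depth and expressed as reads per 1000000 nuclear reads (RPM), and folds are (ChIP RPM + 0.1)/(input RPM + 0.1). The median member had 237 FLI1 reads, 7 RUNX1 reads and 19 input reads in its 2-kb window. In RPM the medians were 3.77 for FLI1, 1.76 for RUNX1 and 0.874 for input. Over all protein-coding genes the corresponding medians were 1.11, 1.01 and 0.874, so input density at the median member equalled that of the median gene while FLI1 density was higher.

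The median FLI1 fold over input was 3.96 at splicing factor genes, against 1.35 over all protein-coding genes. The member folds ran from 0.87 to 12.3, with an interquartile range of 2.62 to 5.58. Of the 47 members, 42 passed 2-fold, where 33.6% of all protein-coding genes did. At 3-fold, 29 members remained, beside 18.9% of all genes and 35.1% of genes with CpG-rich starts (defined in the next paragraph). Of the members, 44 lay above the median of all genes. Under at least 1 other window, depth or pseudocount the named members *Hnrnph1*, *Hnrnpk*, *Hnrnpu*, *Sf3a1*, *Srsf3* and *Srsf10* fell below 2-fold, and *Hnrnpm* passed it. Summed over members, 11015 FLI1 reads stood against 872 input reads, a depth-scaled ratio of 4.36 (4.07 to 4.68), and the same sum over all genes gave 1.94.

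Splicing factor genes more often have CpG-rich starts than the average gene, defined here as GC of at least 55% and an observed-to-expected CpG ratio of at least 0.6 within 500 bp of the start. Of the members, 34 (72.3%) met this definition, beside 38.4% of all genes. CpG-rich starts as a whole had a median FLI1 fold of 2.34 (n = 8597), and 59.2% of them passed 2-fold. The median of the CpG-rich members was 4.58 and that of the 13 other members 2.74, while genes without CpG-rich starts had a median of 1.03. Members thus stood above the general level in both classes, and 39 of the 47 exceeded the CpG-rich median. The second class is not like for like. Its 13 members had a median observed-to-expected CpG ratio of 0.687 and a median GC of 53.8%. Over all genes without CpG-rich starts these medians were 0.281 and 49.3%.

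Input reads were fewer just after CpG-rich starts, with a low of 0.0120 RPM per 50 bp, which raises any ratio to input there. Across the 47 members, the FLI1 fold over input and the ratio of input to its own flanks had a Spearman rho of -0.47, although both measures use the same input counts. The study's methods mention micrococcal nuclease digestion for an input control and sonication for the FLI1 and RUNX1 precipitates, so the input may have been cut in another way than the ChIP chromatin, which bears on every fold over input given here. Input reads were also shorter, at 34 bp against 50 bp in both ChIP libraries, so the positions where a read can be placed uniquely may differ. The part of fragmentation and of read length in these folds was not tested. Each ChIP library was also set against its own reads 5 to 10 kb away on both sides. The median member had 3.54 times the FLI1 density of its own flanks, compared with 1.34 for all genes and 2.06 for CpG-rich starts. By this measure 40 members passed 2-fold, with 31.5% of all genes and 52.1% of CpG-rich starts as background. The input itself had a median ratio to its flanks of 0.934 at members and 0.854 at CpG-rich starts.

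**Figure D1:**
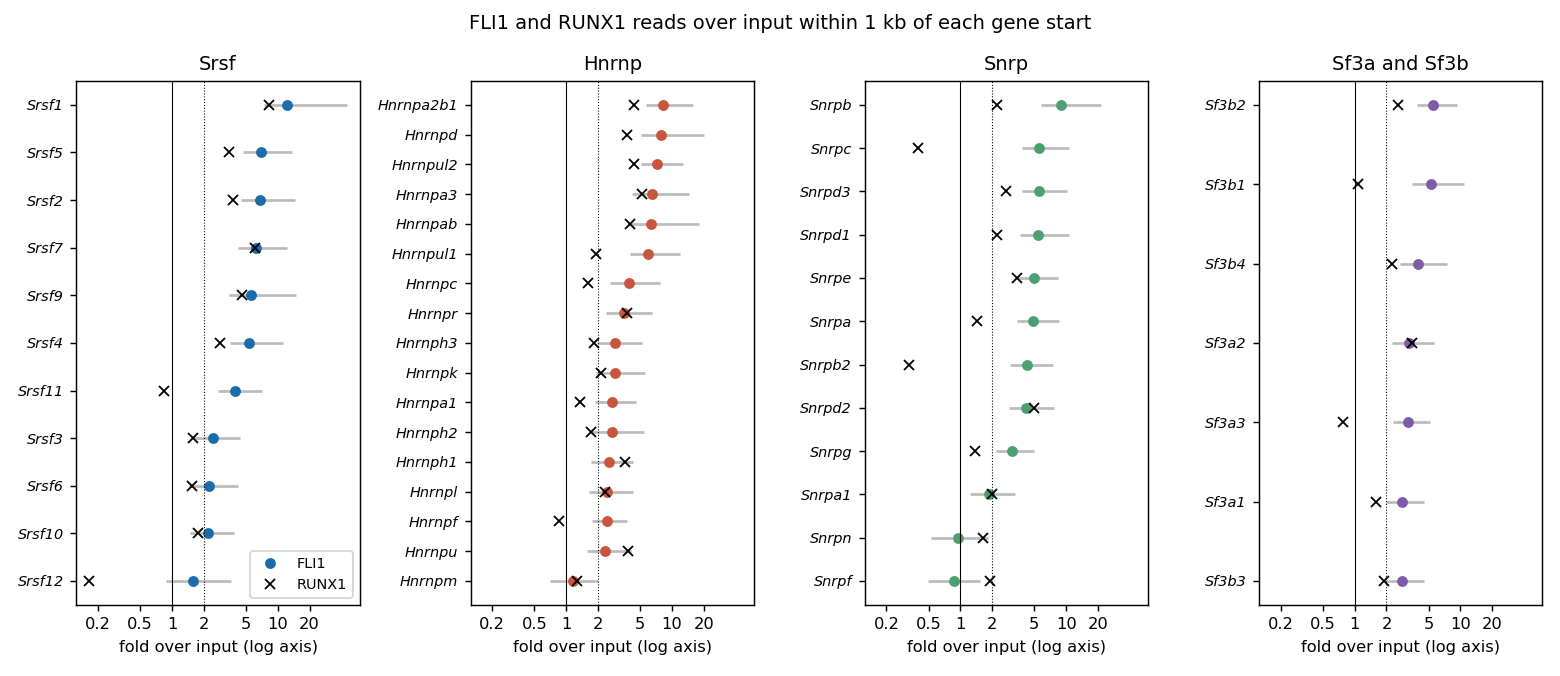
FLI1 and RUNX1 fold over input (log axis) for each of the 47 splicing factor genes, grouped by family, in reads within 1 kb of the gene start with 0.1 RPM added to both libraries; bars are exact 95% intervals of the FLI1 read ratio (counting error only), and no interval is drawn for RUNX1. FLI1 folds run from 0.87 at *Snrpf* to 12.3 at *Srsf1*, and 42 members lie at or above 2-fold.

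FLI1 peaks were called inside the same windows with a scheme modelled on MACS 1.4, at a Poisson p below 1e-05. A peak was found at 43 of 47 members (91.5%), while 43.7% of all protein-coding genes and 71.6% of CpG-rich starts had one. The reads in the best window of a member with a peak numbered 36 to 276, with a median of 108, and the median over all genes with a peak was 67. At a p threshold of 1e-10 there were again 43, and the share over all genes was not counted at that threshold. When the FLI1 library was thinned to 3973375 reads, about the depth of RUNX1, 24 members (51.1%) still had a peak, with 14.7% of all genes and 25.5% of CpG-rich starts as background.

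**Figure D2:**
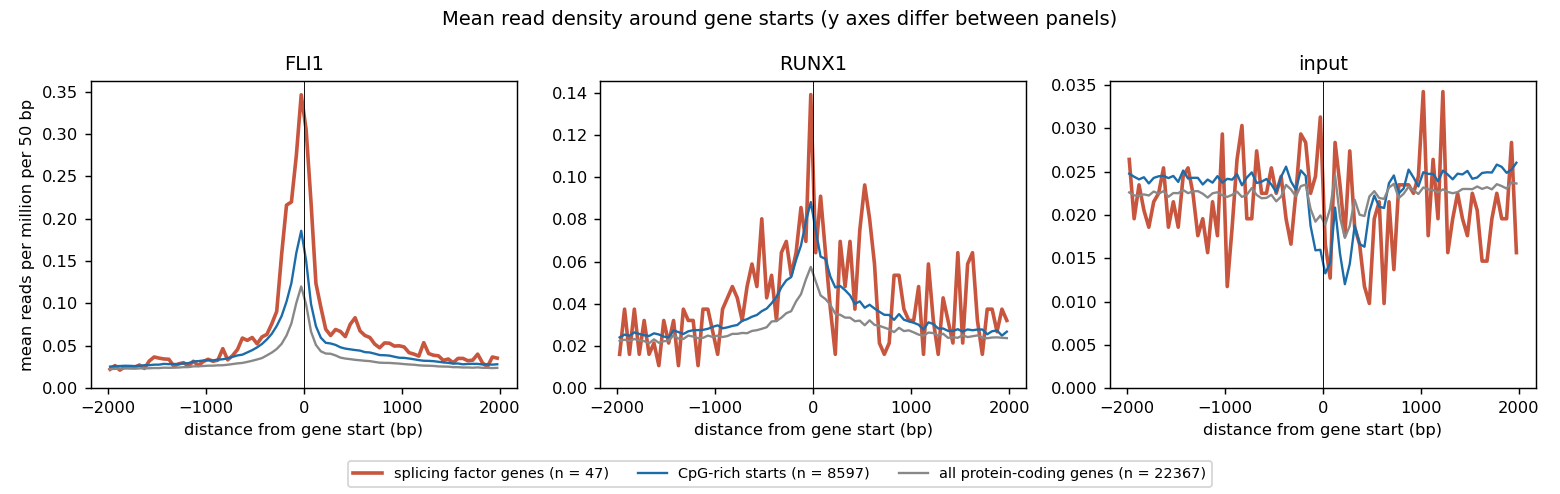
Mean RPM per 50 bp around the gene start, from 2 kb upstream to 2 kb downstream, for FLI1, RUNX1 and input; the y axes differ between panels, and lines are splicing factor genes (n = 47), CpG-rich starts (n = 8597) and all protein-coding genes (n = 22367). FLI1 at splicing factor genes rises to 0.346 just before the start, compared with 0.186 at CpG-rich starts and 0.120 over all genes.

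The averaged profile shows where these reads lay. FLI1 density at the members was highest in the 50-bp bin just before the start, at 0.346 RPM, and had been 0.0223 at the upstream edge 2 kb away. RUNX1 was also highest in that bin, at 0.139 RPM for members, 0.0883 for CpG-rich starts and 0.0575 for all genes. The input of the members stood at 0.0313 there, with no peak of the ChIP kind in its trace. RUNX1 and input traces of 47 genes are ragged because each bin holds few reads. Inside gene bodies the median FLI1 fold of members was 1.12 (0.913 for all genes), far below the 3.96 at the starts.

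Among SR protein genes the median FLI1 fold over input, 5.37, was the highest of the 4 families. Their median FLI1 density, 3.89 RPM, was below the 4.43 RPM of Snrp genes, and their median input, 0.736 RPM, was the lowest of the families. Summed over the family the FLI1 ratio to input was 5.06 (4.32 to 5.97), and 10 of 11 had a peak. *Srsf1*, which encodes the SR protein also known as SF2, had 285 FLI1, 12 RUNX1 and 6 input reads. Its FLI1 fold of 12.3 (7.45 to 45.1) was the highest of all members, and it rested on a thin input that was 0.42 times its own flanks. Against its own FLI1 flanks the gene stood at 4.81, below *Hnrnpul2* at 7.67, the highest member by that measure.

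*Srsf5* had 360 FLI1, 11 RUNX1 and 16 input reads, a FLI1 fold of 6.96 (4.72 to 13.7). *Srsf2*, an SR protein recurrently mutated in myeloid neoplasms in people, had 291, 10 and 13 reads, a fold of 6.77 (4.45 to 14.7). Its FLI1 ratio to its own flanks was only 2.24, with input at 0.53 of its flanks. The 2 references thus placed *Srsf1*, *Srsf2* and *Srsf5* differently, and the Srsf median against own flanks was 2.65, the lowest of the 4 families.

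*Srsf7* had 319 FLI1, 20 RUNX1 and 16 input reads (FLI1 fold 6.18, 4.18 to 12.2), the largest RUNX1 count of any member. Its FLI1 ratio to its own flanks, 5.39, was above those of *Srsf1*, *Srsf2* and *Srsf5*. *Srsf3*, the smallest of the classical SR proteins, had 150, 6 and 20 reads, a fold of 2.43 (1.62 to 4.36). *Srsf10*, which acts as a splicing repressor when dephosphorylated, had 142, 7 and 21 reads, a fold of 2.21 (1.47 to 3.89). *Srsf12* was the one SR gene without a FLI1 peak, with 54 FLI1 reads, 0 RUNX1 reads and 11 input reads and a fold of 1.58 (0.877 to 3.60). That fold fell below 1 when FLI1 was thinned to the RUNX1 depth, in a single random draw that leaves very few reads at such a gene. A second *Srsf12* start 272 bp away had 56, 0 and 11 reads and no peak either.

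Hnrnp genes had the lowest median fold, 2.92, and yet 16 of 17 had a FLI1 peak. Their summed ratio was 4.20 (3.75 to 4.73), above the median, and it carries no pseudocount whereas the median fold does. *Hnrnpa2b1*, which encodes an RNA-binding protein of the hnRNP A/B group, had 451 FLI1, 15 RUNX1 and 17 input reads, a fold of 8.24 (5.66 to 15.9). *Hnrnpul2* had the most FLI1 reads of any member, 478, with 18 RUNX1 and 21 input reads and a fold of 7.22 (5.09 to 12.8). *Hnrnpd*, also known as AUF1, a protein that binds AU-rich elements of messenger RNAs, had 273, 8 and 10 reads, a fold of 7.93 (5.05 to 19.9). These 3 share their windows with the start of a gene on the other strand.

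The remaining named Hnrnp genes lay lower. *Hnrnpc*, whose protein binds uridine tracts in introns, had 201 FLI1, 5 RUNX1 and 16 input reads, a fold of 3.94 (2.61 to 7.74). *Hnrnpa1*, the classical antagonist of SR proteins, had 201, 6 and 24 reads, a fold of 2.74 (1.89 to 4.62). *Hnrnph1*, which binds G-rich runs, had 177, 16 and 23 reads, a fold of 2.52 (1.72 to 4.30). *Hnrnpu*, a nuclear scaffold protein, had 150, 16 and 21 reads, a fold of 2.33 (1.56 to 4.10). The intervals of these 4 genes overlap one another, so counting error does not separate them.

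The choice of start moved several folds. At 6 members a coding transcript start had over 1.5 times the FLI1 fold of the gene record start, namely *Hnrnpf*, *Hnrnph1*, *Hnrnpk*, *Hnrnpl*, *Hnrnpm* and *Snrpn*. The largest shift was at *Hnrnpf*, which is outside the naming rule and was picked after its values were seen. It had 235 FLI1, 5 RUNX1 and 32 input reads (2.44-fold) at the record start, and 386, 15 and 7 reads (14.8-fold) at a coding start 6442 bp away, a fold above that of *Srsf1* and on a similarly thin input. *Hnrnph1* reached 4.02-fold at a coding start 729 bp away. *Hnrnpk*, which encodes a poly(C)-binding protein, had 155 FLI1, 7 RUNX1 and 17 input reads at the start of the gene record (2.91-fold, 1.90 to 5.55), and 258, 15 and 10 reads (7.50-fold) at a coding transcript start 1237 bp away. *Hnrnpm* had 71, 5 and 21 reads at the record start (1.15-fold, 0.709 to 2.00) and no FLI1 peak. At the coding transcript start 1468 bp away it had 170, 8 and 31 reads and a peak with 72 reads in its best window. With every protein-coding transcript start admitted, 44 of 47 members had a FLI1 peak. More windows give a gene more chances of a peak, and the share over all genes was not counted this way.

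Snrp genes were split. Their median FLI1 fold was 4.58, their summed ratio 4.38 (3.83 to 5.03), and their median against own flanks 4.78 was the highest of the families, whereas 10 of 12 had a peak, the smallest share. *Snrpb*, which encodes the Sm ring proteins B and B′, had 333 FLI1, 5 RUNX1 and 11 input reads, a fold of 8.90 (5.77 to 21.2). *Snrpc*, the U1 protein that stabilises contact with the 5′ splice site, had 304, 1 and 17 reads, a fold of 5.59 (3.79 to 10.7). FLI1 reads were plentiful at *Snrpc* while RUNX1 stayed at a single read.

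Further Sm genes had FLI1 signal of the same order. *Snrpd3* had 330 FLI1, 10 RUNX1 and 19 input reads (FLI1 fold 5.49, 3.78 to 10.1). *Snrpe* had 367, 16 and 24 reads (4.93, 3.49 to 8.35), and *Snrpd2* had 251, 19 and 19 reads (4.20, 2.86 to 7.71). Intervals of these 3 overlap. *Snrpa1*, a U2 protein gene, was the single member that had a FLI1 peak without reaching 2-fold, with 120, 8 and 21 reads and a fold of 1.88. It falls outside the naming rule and was picked after its values were seen.

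In the Snrp family 2 genes had no more FLI1 than input within 1 kb of the gene record start. *Snrpf*, which encodes another subunit of the same Sm ring, had 47 FLI1, 7 RUNX1 and 19 input reads, a FLI1 fold of 0.87 (0.492 to 1.54) and a CpG-rich start. *Snrpn*, an imprinted gene expressed chiefly in neurons that encodes a protein close to SmB, had 44, 5 and 16 reads, a fold of 0.96 (0.526 to 1.80). Neither had a FLI1 peak, and the second annotated *Snrpn* start, 135063 bp away, had 66, 5 and 15 reads and none. *Snrpf* has 1 annotated coding start, so no other start could be examined. Some settings put these folds above 1, *Snrpf* at 1.09 within 500 bp and *Snrpn* at 1.20 as a mean over coding transcript starts. Within 2 kb both stayed below 1, at 0.97 and 0.89.

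All 7 Sf3a and Sf3b genes had a FLI1 peak and passed 2-fold, with folds from 2.79 to 5.47, the narrowest range of the families. *Sf3a1* was below 2-fold within 2 kb of the start (1.70) and after FLI1 reads were thinned to the number of RUNX1 reads (1.95). The median was 3.25 and the summed ratio 3.95 (3.36 to 4.66). *Sf3b2* had 408 FLI1, 12 RUNX1 and 24 input reads, a fold of 5.47 (3.89 to 9.27), and its best window held 276 reads, the most of any member. *Sf3b1*, the branch-site factor often mutated in myelodysplasia, had 257, 3 and 15 reads, a fold of 5.30 (3.52 to 10.7).

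*Sf3b4* had 225 FLI1, 8 RUNX1 and 18 input reads (3.96, 2.67 to 7.42). *Sf3a1* had 229, 8 and 27 reads (2.79, 1.96 to 4.54) and *Sf3b3* had 237, 10 and 28 (2.79, 1.97 to 4.50). FLI1 counts of these 3 genes were nearly alike, and what separated their folds was the input count, within overlapping intervals. Within 500 bp the order changed, with *Sf3b3* at 7.49, *Sf3b4* at 5.82 and *Sf3a1* at 4.38. The 19 members not named by the rule had 118 to 337 FLI1 reads and folds of 1.88 to 6.42.

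The RUNX1 file holds far fewer reads than the FLI1 file, and also far fewer than the count of RUNX1 tags that the study lists for these cells. The low depth is therefore that of the deposited file. Members held 0 to 20 RUNX1 reads each, 406 in all, so single-gene folds are loose and sums say more. The median RUNX1 fold over input was 2.11, against 1.24 for all genes and 1.83 for CpG-rich starts. Against its own flanks the median was 1.76, beside 1.29 for all genes and 1.69 for CpG-rich starts, so the gap to CpG-rich starts was small by that measure. Of the members 24 passed 2-fold, where 25.6% of all genes and 44.2% of CpG-rich starts did. Summed, the ratio was 2.55 (2.26 to 2.87), with 1.51 over all genes. By family it was 3.05 (2.34 to 3.97) for Srsf, 2.84 (2.34 to 3.44) for Hnrnp, 2.17 (1.69 to 2.77) for Snrp and 2.01 (1.47 to 2.72) for Sf3a and Sf3b. These intervals overlap from family to family, and against its own flanks the order of the families was another, with RUNX1 medians of 2.89 for Sf3a and Sf3b, 2.18 for Hnrnp, 1.73 for Srsf and 1.60 for Snrp.

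RUNX1 peaks were called at 5 members (10.6%), while 3.12% of all genes and 6.11% of CpG-rich starts had one. They were *Srsf7* (9 reads in the best window), *Snrpe* and *Hnrnph1* (8 each), *Hnrnpu* and *Hnrnpul2* (7 each). The RUNX1 summit fell at the gene start for *Snrpe* and at -74 bp for *Srsf7*. It was farther off for the rest, at -650 bp for *Hnrnpu*, 518 bp downstream for *Hnrnph1* and 850 bp downstream for *Hnrnpul2*. None of the 5 remained at a threshold of 1e-10. *Snrpd2*, with 19 RUNX1 reads, had no peak because its best window held 6. The counts are so low that a member without a RUNX1 peak cannot be called unbound.

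Between the 2 ChIP libraries, scaled to depth, the median FLI1 to RUNX1 ratio was 1.66 at members, 1.19 over all genes and 1.29 at CpG-rich starts. This ratio does not involve the input. Of the members 18 passed 2-fold, beside 21.9% of all genes and 22.9% of CpG-rich starts. Summed by family the ratio was 2.02 (1.64 to 2.51) for Snrp, 1.96 (1.52 to 2.58) for Sf3a and Sf3b, 1.66 (1.34 to 2.06) for Srsf and 1.48 (1.27 to 1.74) for Hnrnp. Across the 47 members, FLI1 RPM and RUNX1 RPM had a Spearman rho of 0.29, a description over genes that share both libraries, and over all genes it was 0.67. The 2 values are not like for like, because members span 0.699 to 7.59 RPM of FLI1 and 0 to 5.03 RPM of RUNX1. All genes span 0 to 24.8 and 0 to 233 RPM.

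Summit position varied by family. Of the 43 members with a FLI1 peak, 34 (79.1%) had the summit within 250 bp of the gene start, and of these 24 lay upstream. The share over all genes with a peak was 70.2%. The median distance from the start was 100 bp at members and 98 bp over all genes with a peak. All 10 Snrp genes with a peak had the summit within 250 bp, as did 9 of 10 Srsf, 6 of 7 Sf3a and Sf3b and 9 of 16 Hnrnp genes. Of the 9 more distant summits 7 belonged to Hnrnp genes, and 4 of the 9 lay within 250 bp of another coding transcript start of the same gene.

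**Figure D3:**
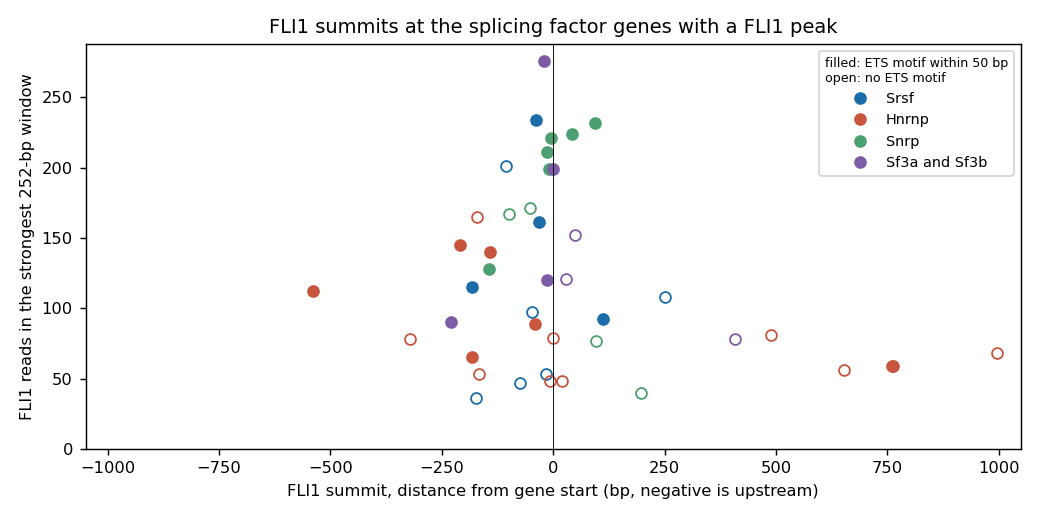
FLI1 reads in the strongest peak window (2 fragment lengths, within 1 kb of the start) against the distance of the FLI1 summit from the gene start (bp, negative upstream) for the 43 splicing factor genes with a peak, coloured by family, filled where the ETS consensus lies within 50 bp of the summit and open elsewhere. Of the 43 members with a peak, 34 have the summit within 250 bp of the start, and 7 of the 9 farther ones are Hnrnp genes.

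The ETS consensus was searched on both strands as CAGGAAA or CAGGAAG, and likewise with CC in place of the leading CA. All 4 forms contain the core GGAA. Within 50 bp of the summit 20 of 47 members (42.6%) held it, beside 26.8% of all genes and 35.2% of CpG-rich starts. All 20 had a FLI1 peak, as did 23 of the 27 members without the consensus. Over all protein-coding genes, 4488 of the 5988 with the consensus near the summit had a peak. Of the 22367 genes together 9765 had a peak, and 16379 lacked the consensus. The form nearest the summit was CCGGAAG in 17, among them the *Snrpb*, *Sf3b2*, *Srsf5*, *Snrpc* and *Hnrnpd* windows printed above, and CCGGAAA in the other 3, *Snrpe* included. The forms with CA in front were nearest in none. Windows 500 bp from the member summits held the consensus at 7.45%.

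Among genes with a peak the shares were close. Of members with a peak 46.5% held the consensus near the summit, and of all genes with a peak 46.0% did. In the promoter window from 250 bases before to 50 after the start, CCGGAAG occurred at 16 members (34%), at 10.8% of all genes and at 18% of CpG-rich starts. The RUNX consensus, TGTGGT or TGCGGT on either strand, was found in the same window at 21.3% of members and 21.5% of all genes. A match to these letters is a description of the sequence and not a binding site.

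Splicing factor genes with CCGGAAG in the promoter had more FLI1 relative to RUNX1 than those without it. All 16 had a FLI1 peak, as did 27 of the other 31. The summed FLI1 to RUNX1 ratio was 2.13 (1.81 to 2.54) with the sequence and 1.48 (1.31 to 1.69) without it. Over input, the summed FLI1 ratio was 4.96 with and 3.99 without, whereas the RUNX1 ratio was 2.33 (1.90 to 2.84) with and 2.68 (2.31 to 3.12) without, with overlapping intervals. The same contrast held over all protein-coding genes for FLI1 relative to RUNX1, at 1.83 with CCGGAAG and 1.19 without it, so it was not particular to these genes. The RUNX1 ratio over input was 1.98 with and 1.45 without there. The share of all genes with a FLI1 peak was 86.7% with CCGGAAG and 38.5% without it.

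**Figure D4:**
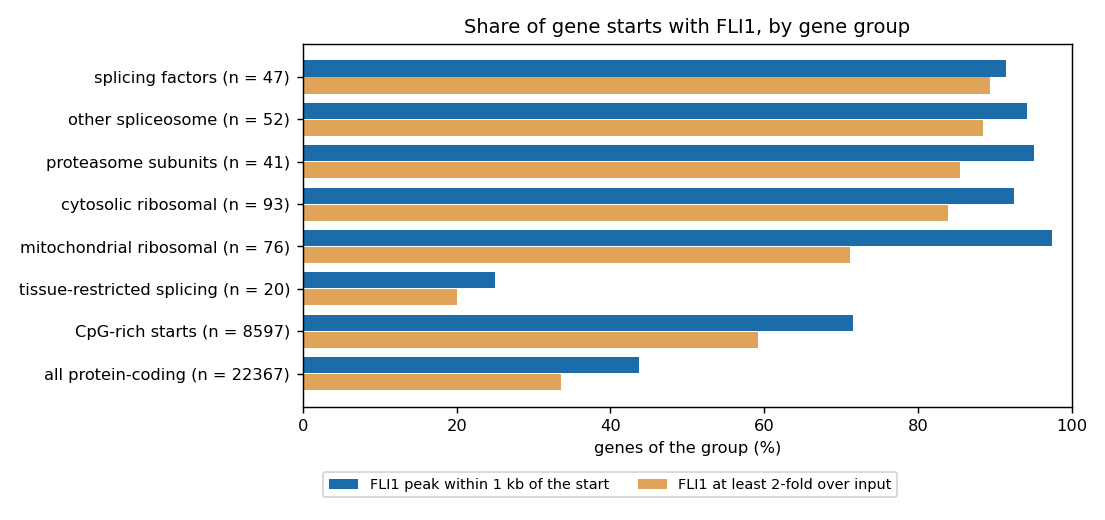
Percentage of genes (x axis) with a FLI1 peak within 1 kb of the start and with FLI1 at least 2-fold over input, for the splicing factor genes and comparison groups; bars start at 0. Splicing factor genes reach 91.5% with a FLI1 peak, while all protein-coding genes stand at 43.7%.

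Many of these genes start close to a neighbour on the opposite strand, counted on either side of the start. The start of another protein-coding gene on the opposite strand lay within 1 kb at 16 of 47 members (34%), at 10.8% of all genes and at 19.9% of CpG-rich starts. Examples are *Srsf2* with *Mfsd11*, *Hnrnpa2b1* with *Cbx3*, *Hnrnpa1* with *Cbx5*, *Hnrnpul2* with *Ttc9c* and *Sf3b3* with *Cog4*. All 16 had a FLI1 peak, beside 85.2% of all genes with such a neighbour, and so did 27 of the 31 members without one. Of all 22367 protein-coding genes 9765 had a peak, and 2068 of these were among the 2426 with such a neighbour. Reads in windows shared with a neighbour cannot be assigned to 1 of the 2 genes. Among the 26 members with no other gene start in the window, 23 had a FLI1 peak and 22 passed 2-fold. Over all protein-coding genes, with or without another start in the window, the shares were 43.7% and 33.6%. The shares over all genes under the same restriction were not counted.

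Lists of related genes place these values. Of 52 other spliceosome genes outside the rule, 49 (94.2%) had a FLI1 peak, and their median fold was 3.73. Among them *U2af2*, the large subunit of the factor that reads the polypyrimidine tract, picked after its values were seen, had 481 FLI1, 19 RUNX1 and 11 input reads, a fold of 12.8 (8.37 to 30.5). A list of 20 splicing regulators was drawn up as tissue-restricted, with *Nova1* and *Rbfox1* but also *Rbfox2*, *Mbnl1* and *Mbnl2*. How restricted each gene is was not checked here. Of the 20, 5 (25%) had a FLI1 peak, and the median fold was 1.24. RUNX1 peaks were called at 6 of the 52 and at 0 of the 20, where the share was 3.12% of all genes and 6.11% of CpG-rich starts.

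Housekeeping families outside splicing were counted in the same way. Proteasome subunit genes had a peak at 39 of 41 (95.1%), with a median fold of 2.97. Cytosolic ribosomal protein genes had one at 86 of 93 (92.5%, median 3.47) and mitochondrial ribosomal protein genes at 74 of 76 (97.4%, median 2.96). Splicing factor genes, at 91.5%, were below these 3 groups in share and above them in median fold, and neither difference was tested.

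Megakaryocyte marker genes were counted too. Of 10 such markers 8 (80%) had a FLI1 peak, below the share of the splicing factor genes and above the 43.7% of all genes. Their median FLI1 fold was 3.96, as at the splicing factor genes, and their median FLI1 density was 4.74 RPM against 3.77. Among them were *Itga2b* (613 FLI1, 12 RUNX1 and 24 input reads, 8.17-fold) and *Pf4* (553, 11 and 26 reads, 6.86-fold). *Vwf* and *Ppbp* had no peak within 1 kb of the gene record start, the only start examined for them. The study itself lists a FLI1 site close to the *Vwf* start that it used, so the missing *Vwf* peak holds for this window only. These are binding data, so they do not measure how much of each gene was transcribed, and the count does not by itself establish the cell type.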

How the data were processed

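ChIP-seq of FLI1 and RUNX1 and an input library from MKMat were analysed. Alignment to mm9 (Bowtie) was done by the authors, whose deposited files list each uniquely placed read by its coordinates and strand. These are positions, not a signal or a normalised unit, and all counts were made here. The labels also name SICER 1.1 and MACS 1.4. Labels and methods differ on the library kit and on how input chromatin was fragmented.

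Mitochondrial reads and repeated input positions (3.24% of input reads) were removed. Reads were moved from their 5′ end by 63 bp (FLI1) or 79 bp (RUNX1, input), which is the fragment length divided evenly between strands, and counted within 1 kb of the 5′ end of each GENCODE M1 gene record. A pseudocount of 0.1 RPM was added. Peak windows spanned 2 fragment lengths, and the expectation was the highest of the genome-wide rate (effective genome 1.87e9) and the scaled input over 1, 5 and 10 kb. Counting and peak calling were tested on simulated data. Sequences were read from the mm9 genome by coordinate. Python 3.11.15, numpy 2.4.6, scipy 1.17.1 and pandas 2.3.3 were used.

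The members, lists and tests were chosen with earlier results of these data known. Named genes were the 3 highest and 2 lowest FLI1 folds in each family, a list of well-known members, the 3 members with the most RUNX1 reads and members with a RUNX1 peak. *Snrnp70*, on that list, does not match the rule. The CpG-rich class and the subset with no other gene start in the window were chosen after seeing the data. Settings varied were the window, gene start, read shift, pseudocount, scaling, input repeats, chromosomes, minimum input, depth, reference, fold and p thresholds and motif. The list of markers of other cell types is not reported here.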

Additional observations from a re-analysis of the deposited data

How the results depend on the processing

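No paired analysis was possible because each antibody has 1 library. No alternative turned the direction of a list-wide value. Among the named genes, the FLI1 fold over input crossed 1 at 3 low members: *Srsf12* went from 1.58 to 0.58 with FLI1 thinned, *Snrpf* from 0.87 to 1.09 within 500 bp and 1.14 with FLI1 thinned, and *Snrpn* from 0.96 to 1.20 as a mean over coding transcript starts. The median FLI1 fold over input was 5.82 within 500 bp of the start and 2.73 within 2 kb, and the median FLI1 to RUNX1 ratio was 2.37 within 500 bp; the cause was not tested. Thinning FLI1 to the RUNX1 depth left 24 members with a FLI1 peak. At a p threshold of 1e-10 the number with a RUNX1 peak was 0. The core GGAA alone lay within 50 bp of the summit at 39 members, a sequence so short that 78.3% of all genes also had it. Restricting the list to the 26 members with no other gene start in the window, a setting added after seeing the data, left 22 past 2-fold and 23 with a FLI1 peak, by its construction out of fewer genes. The other 48 list-wide values stayed within the limit set for them, the 95% order-statistic interval of the median or 1.5 times a count. Of the FLI1 folds of named genes, 316 values stayed within the wide counting interval and 33 left it. Within 500 bp *Hnrnpk* fell to 1.68, while *Hnrnpm* was 2.09, *Sf3b3* 7.49, *Snrpe* 8.79 and *Srsf3* 4.62, and inside their intervals *Snrpc* was 9.31, *Snrpb* 13.6, *Sf3b2* 8.66, *Sf3b1* 8.11, *Sf3a1* 4.38 and *Hnrnpu* 3.50. Within 2 kb 12 named genes left their interval, all downwards, from *Srsf1* at 6.36 to *Sf3a1* at 1.70, and *Srsf3* (1.95) and *Srsf10* (1.80) also fell below 2-fold. With FLI1 thinned *Hnrnpd* was 3.77, *Hnrnph1* 1.61, *Sf3a1* 1.95, *Srsf10* 1.27 and *Snrpn* 0.42. Thinning was a single random draw, and it left very few FLI1 reads at low members such as *Srsf12*, *Snrpf* and *Snrpn*. With a pseudocount of 0.5 RPM *Srsf1* was 6.48, *Snrpb* 5.76, *Hnrnpd* 5.04, *Hnrnpu* 1.97 and *Srsf10* 1.88. Against own flanks *Srsf1*, *Srsf2*, *Srsf5*, *Snrpb*, *Hnrnpa2b1* and *Hnrnpd* left their interval, at 2.24 to 5.27. As a mean over coding transcript starts *Hnrnpa2b1* was 5.49 and *Hnrnpk* 5.16. The count past 2-fold was 35 within 2 kb and 39 with a pseudocount of 0.5 RPM, and 29 members passed 3-fold. For that wider window and that pseudocount the shares over all genes were not counted. Depth limits RUNX1 most, with a median of 7 reads per member, and in 3 members the input had fewer than 10 reads. Mappability, antibody efficiency and the spread between precipitates were not measured.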

Other observations

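The single-exon genes left out by the rule had FLI1 peaks as well. *Hnrnpa0* had 182 FLI1, 16 RUNX1 and 17 input reads, a FLI1 fold of 3.39 (2.25 to 6.49), and *Sf3b5* had 183, 8 and 22 reads, a fold of 2.71 (1.84 to 4.70). The 7 genes whose symbols begin with Snrnp, which encode further proteins of the small nuclear ribonucleoproteins and do not match the rule, all had a FLI1 peak, with a median fold of 3.15. *Snrnp70*, the U1 protein that binds the first stem-loop of U1 RNA, had 220, 14 and 16 reads, a fold of 4.30 (2.86 to 8.46), and 1 of the 7 had a RUNX1 peak. Inside gene bodies the FLI1 fold over input ran from 0.639 to 2.37 among members, with *Hnrnpu* highest. Of the 52 other spliceosome genes, the 3 without a FLI1 peak were *Prpf6* (74 FLI1 and 22 input reads), *Zrsr1* (114 and 32) and *Srpk2* (68 and 9), named after their values were seen.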
